A study of Homo sapiens with 12 samples.

Results

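The genes described here are 36 genes of leukocyte adhesion: 15 integrin alpha subunits, 7 integrin beta subunits, 7 immunoglobulin-type adhesion molecules (ICAM1, ICAM2, ICAM3, ICAM4, VCAM1, PECAM1 and F11R), the selectin ligand SELPLG, CD47 and its receptor SIRPA, and 4 adapters between integrins and actin (TLN1, FERMT3, VCL and ILK). They were chosen by name, and all 36 were found among the 58051 genes of the count table. The cells were THP-1, a human monocytic leukaemia line, differentiated with phorbol 12-myristate 13-acetate (PMA, 20 ng/ml for 24 h). They were either wild type (WT) or SDC3-KO, a line in which the gene of the cell-surface proteoglycan syndecan-3 was targeted with CRISPR/Cas9. Each genotype was either given PMA alone or PMA followed by recombinant human interferon-γ (IFN-γ), which made 4 groups of 3 libraries that all carried the PMA treatment. The sources used here do not give the dose and time of IFN-γ or whether the knockout is 1 clone, so a difference between the lines and the loss of SDC3 cannot be told apart. Nor is it said that a group's 3 libraries are separate cultures, and p-values then measure only the spread between these libraries.

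Integrins are receptors made of 1 alpha and 1 beta chain, and the pairing decides what the receptor binds. The β2 integrins of leukocytes (with αL, αM or αX) bind ICAMs, complement fragments and fibrinogen, the β1 integrins bind mainly matrix proteins, and those with αV bind proteins carrying an arginine-glycine-aspartate motif. ICAMs and VCAM1 are counter-receptors on the partner cell. Talin and kindlin bind the beta chain from inside and switch the receptor on, and vinculin ties talin to actin. RNA levels say nothing direct about how much of a receptor is on the cell surface or how active it is.

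The 12 libraries held 23616738 to 29426415 counts each. SDC3 itself was lower in every knockout library than in any wild-type library of the same treatment: its level was 41.2% of wild type with IFN-γ (log2 fold change -1.28, adjusted p = 3.4e-18, SE 0.06) and 20.6% without (-2.28, SE 0.06, adjusted p = 9.2e-24). Of the 10 markers of monocytes and macrophages, 1 was called higher and 5 lower in the knockout with IFN-γ, and 2 higher and 5 lower without. CD14 ranged from 309.9 to 758 CPM (counts scaled to a common library size) and CSF1R from 1214 to 1908 over the 12 libraries. CD68 stayed under 0.648 CPM, and 85.8% of its exon bases are also covered by another gene of the table. Without IFN-γ, the means in wild type and the knockout were 25.3 and 8.74 CPM for CD163, 31.8 and 7.98 for MRC1, 1295 and 896 for LYZ and 594 and 527 for TYROBP. The means of CD14 (322 and 390) and CSF1R (1251 and 1439) were higher in the knockout without IFN-γ, and that of FCGR1A with it (314 and 414). The summed level of the 10 was 3550 to 4822 CPM. The markers of lymphocytes summed to at most 3.88 CPM, those of platelets to at most 2.47 and those of epithelium to at most 0.0814, and MS4A1, KRT5 and KRT14 had no count. Of the 4 markers of endothelium, VWF made up nearly all of the sum, which was 12.3 to 14.6 CPM in wild type, 2.24 to 2.57 in wild type with IFN-γ, 4.07 to 4.68 in the knockout and 0.994 to 1.47 in the knockout with IFN-γ, and CDH5, TEK and CLDN5 stayed at or under 0.134. The 4 markers of fibroblasts, chiefly COL1A1 and PDGFRA, summed to 8.12 to 9.16, 16.1 to 16.6, 11.2 to 14.3 and 20.2 to 22.6 CPM in the same order, and COL1A2 and DCN stayed at or under 0.0814. By genotype COL1A1 and PDGFRA went opposite ways. In wild type and the knockout COL1A1 averaged 8.01 and 12.1 CPM, and 7.93 and 17.4 with IFN-γ. PDGFRA averaged 0.508 and 0.191, and 8.47 and 4.29 with IFN-γ. The summed level of 8 genes of cycling cells moved with both treatment and genotype: 745 to 830 CPM in wild type, 197 to 232 in wild type with IFN-γ, 678 to 700.3 in the knockout and 79.7 to 85.2 in the knockout with IFN-γ. Granule genes of immature myeloid cells, 5 in all, summed to 124 to 133, 24.4 to 26.1, 192 to 215 and 83.7 to 97.5 CPM in the same order. Of these, 4 were called higher in the knockout in each treatment, and 1, MPO, lower without IFN-γ. The part of any of these lists in the results below was not tested, and in bulk RNA fewer cells of a kind cannot be told apart from less RNA per cell.

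How the reads were counted bears on several of these genes. A read in an exon that 2 genes share was assigned to neither, because strand was not used and no option for overlaps was set, per the file headers. ICAM4, a red-cell adhesion molecule, shares all of its exon bases with ICAM4-AS1 and had 0 counts in every library, so nothing is known of its RNA here. The shared part was 78.5% in ILK, 71.2% in ICAM3, 51.6% in ITGB3, 42.1% in ITGB7, 36.6% in F11R, 26.8% in ICAM2 and 23.6% in ICAM1, while ITGAM, ITGAX, ITGB5 and VCAM1 shared none. Between groups the counted part of each gene is the same. Where levels of different genes are set side by side below, they are in TPM, which is CPM corrected for gene length, computed on the exon length that no other gene covers.

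**Figure D1:**
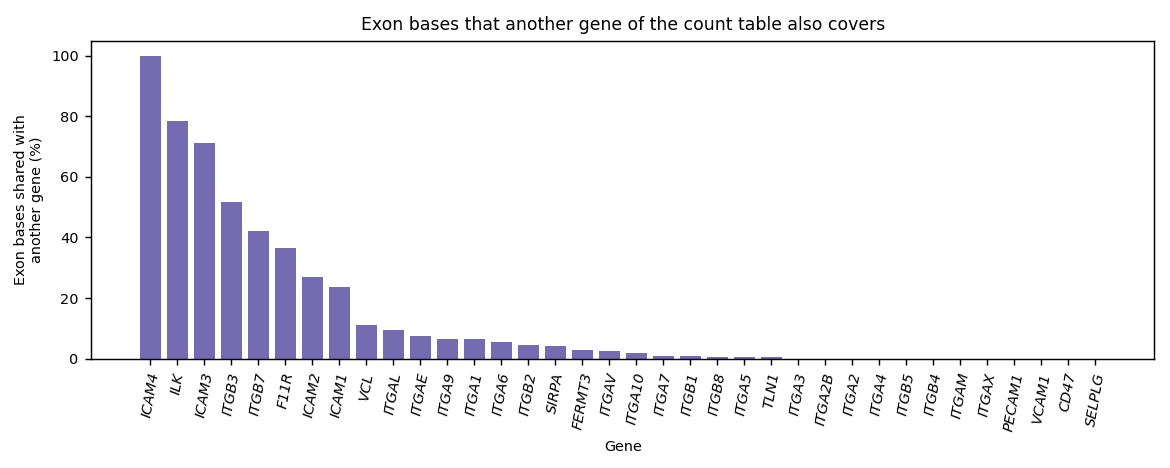
The bars give the percentage of exon bases of each of the 36 genes (x axis) that another gene of the count table also covers (y axis, %). ICAM4 stands at 100%, followed by ILK at 78.5% and ICAM3 at 71.2%.

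VCAM1, the gene of the set with the largest rise with IFN-γ, is shown by the bases around its start site. RefSeq (GRCh38.p14) gave a promoter window, 250 bases before the start to 50 after it, for 23 of the 36 genes. The window of VCAM1 is chr1:100719492-100719791 (plus strand), written 5′ to 3′ along the gene. Capitals mark an NF-κB consensus match and, nearer the start, a match to GAAANNGAAA, the letters bound by interferon regulatory factors, on the opposite strand.
VCAM1: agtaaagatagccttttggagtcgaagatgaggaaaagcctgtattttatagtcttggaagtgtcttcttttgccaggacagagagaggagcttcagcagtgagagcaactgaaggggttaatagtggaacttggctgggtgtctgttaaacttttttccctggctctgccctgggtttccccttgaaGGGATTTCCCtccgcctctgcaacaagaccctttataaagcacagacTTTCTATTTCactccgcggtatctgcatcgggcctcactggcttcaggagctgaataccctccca
Both strands were searched, and a position is counted from the start base, which is 0. The VCAM1 match to GAAANNGAAA lay from -15 to -6, and it was the only one among the 23 windows, against 3.57% of all 35116 RefSeq windows of this length. NF-κB consensus matches stood in 12 of the 23 windows, VCAM1 from -62 to -53 among them, and in 11.3% of all windows. The windows of ICAM1, ITGA4, ITGB7 and CD47, which also rose with IFN-γ in both genotypes, held no such match. Those of ITGA5, FERMT3 and ICAM3, which fell, did. These matches describe letters, and binding was not measured.

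The 2 genotypes differed at many of these genes, in both directions. Of the 36, 34 passed the filter on low counts (ITGA2 and ICAM4 did not; ITGA2 had 9 counts in all 12 libraries together). A gene was called at an adjusted p under 0.05 in edgeR's quasi-likelihood test over all 17119 genes tested. With IFN-γ, 15 of the 34 were higher in the knockout and 6 lower, where 47.2% of all genes tested were called (22.9% higher, 24.3% lower), and the median log2 fold change of the 34 was 0.11, against -0.01 for all genes. Without IFN-γ, 11 were higher and 13 lower, where 50.1% of all genes were called (25.4% higher, 24.8% lower), with a median of -0.08, against 0.01. A called difference of 1 or more on the log2 scale was found for 5 of the 34 with IFN-γ and 7 without, against 9.33% and 9.12% of all genes tested. With the libraries scaled by their totals alone, the first of these splits became 10 higher and 9 lower.

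The same direction in both treatments was called for 14 genes, 8 higher and 6 lower of the 34, where 16.2% of all genes tested were called higher in both and 17.1% lower in both. F11R, ITGA6, ITGA9, ITGAE, ITGB2, ITGB7, PECAM1 and SELPLG were higher in the knockout with and without IFN-γ, which is 8 of the 15 and 8 of the 11 higher calls. CD47, ITGA3, ITGAM, ITGAX, ITGB5 and ITGB8 were lower in both, 6 of the 6 and 6 of the 13 lower calls. ICAM1 and VCAM1 were lower in the knockout without IFN-γ and higher with it. No call was made in either treatment for ICAM2, ILK, ITGA1, ITGA2B and ITGB4, whose largest mean level was 5.13 CPM.

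**Figure D2:**
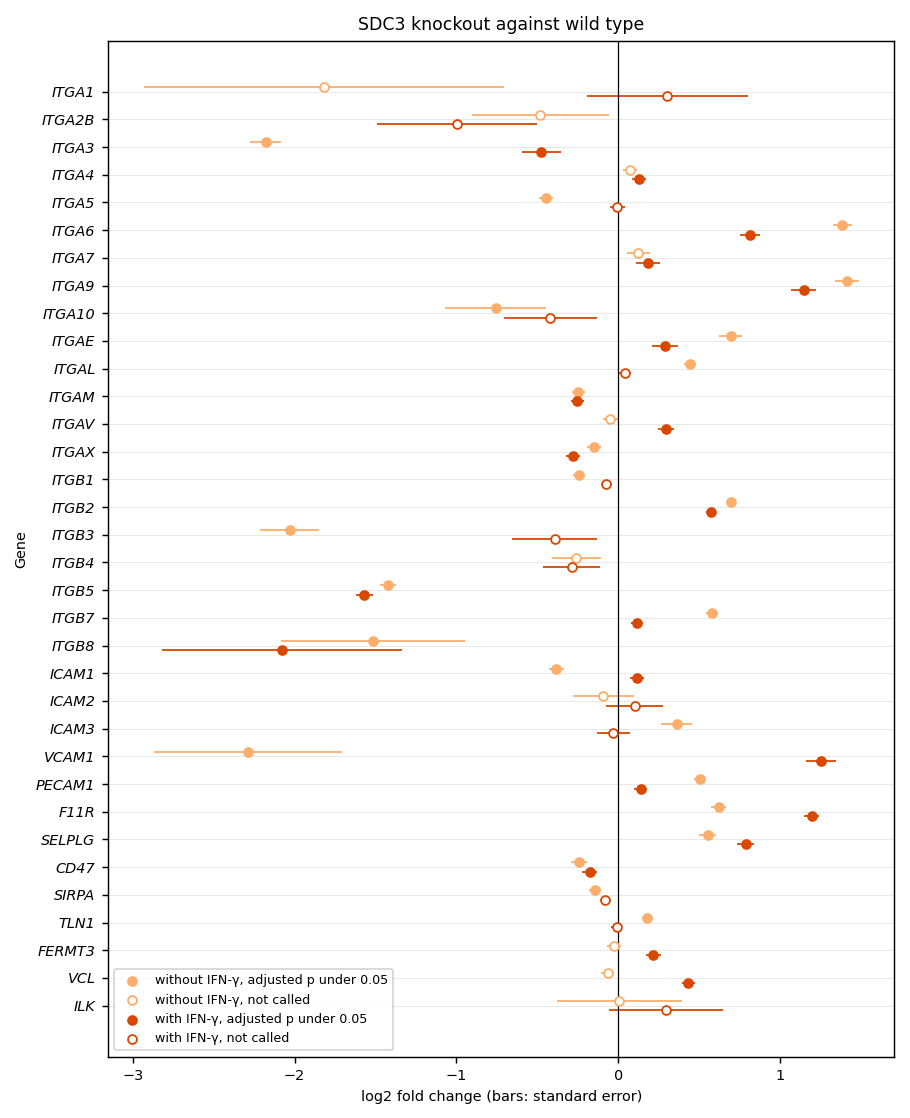
The points give the log2 fold change of the knockout against wild type (x axis) for the 34 tested genes (y axis), without IFN-γ in light orange and with it in dark orange. Filled points passed an adjusted p of 0.05 and bars are standard errors. ITGB5, ITGA3, ITGB3 and ITGB8 lie far to the left, ITGA6 and ITGA9 to the right, and VCAM1 has a point on each side of 0.

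IFN-γ itself called more of these genes than the genotype did, against a larger background. In wild type 13 of the 34 rose and 15 fell, where 56.5% of all genes were called (28.6% higher, 27.9% lower). In the knockout 16 rose and 12 fell, where 61.1% of all genes were called (29.2% higher, 31.8% lower). A called response of 1 or more on the log2 scale was found for 10 of the 34 in wild type and 10 in the knockout, against 16.2% and 19.4% of all genes tested. Small IFN-γ responses rest on the scaling: with library totals alone the median of all genes moved from -0.02 to -0.27 in wild type and from -0.05 to -0.35 in the knockout, and the splits became 8 higher and 18 lower in wild type and 8 higher and 21 lower in the knockout. With upper-quartile scaling those medians were -0.13 and -0.17, and the splits were 12 higher and 17 lower and 11 higher and 15 lower. The called rises of ITGB2 (0.25 in wild type and 0.12 in the knockout), SIRPA (0.20 and 0.27) and ITGAM (0.12 and 0.12), and in the knockout those of TLN1 (0.10) and VCL (0.14), changed sign under library totals, and those of ITGAM and TLN1 in the knockout also under upper-quartile scaling.

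**Figure D3:**
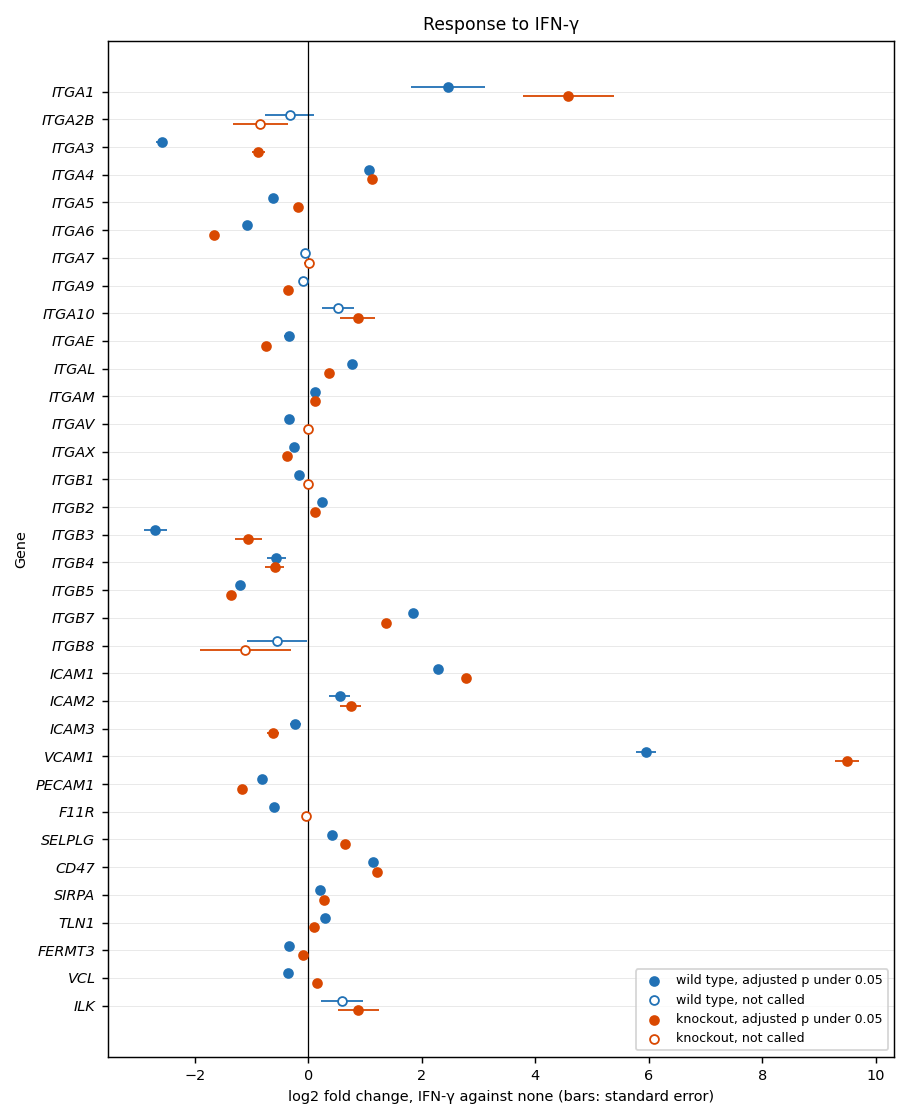
The points give the log2 fold change with IFN-γ against without (x axis) for the 34 tested genes (y axis), in wild type (blue) and the knockout (orange). Filled points passed an adjusted p of 0.05 and bars are standard errors. VCAM1, ITGA1 and ICAM1 lie farthest to the right and ITGA3 and ITGB3 in wild type farthest to the left. Points of ITGAM, ITGB2, SIRPA, TLN1 and VCL near 0 cross it under library totals alone.

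The β2 chain ITGB2 (chr21:44885953-44931989, minus strand), the common partner of the leukocyte integrins, was higher in the knockout, and its TPM was above that of any other gene of the set in all 4 groups (2888 ± 70.8 TPM in wild type, SD, n = 3). It was at 4353, 4207 and 4148 CPM in wild type and 7129.6, 6738 and 6694 in the knockout. With IFN-γ the levels were 5073, 4956 and 5032 in wild type and 7631, 7519 and 7247 in the knockout. Every knockout library lay above every wild-type library. The difference was 1.62-fold without IFN-γ (log2 fold change 0.69, adjusted p = 2.2e-18, SE 0.03) and 1.49-fold with it (log2 fold change 0.57, adjusted p = 3.6e-16, SE 0.03).

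Of the alpha chains that pair with β2, 2 went the other way. ITGAM (αM, CD11b), the chain of complement receptor 3, was at 521, 554 and 569 CPM in wild type and 471, 458 and 457 in the knockout, and with IFN-γ it was at 609.7, 606 and 574 in wild type and 512, 506 and 484 in the knockout. The genotypes did not overlap in either treatment, and ITGAM was lower in the knockout by a log2 fold change of -0.25 without IFN-γ (SE 0.04, adjusted p = 2.7e-06) and -0.25 with it (SE 0.04, adjusted p = 2.0e-06). Its rise with IFN-γ (0.12 in wild type and 0.12 in the knockout) lost its call without wild-type replicate 1 (adjusted p = 0.051) or without IFN-γ-treated knockout replicate 1 (adjusted p = 0.054). ITGAX (αX, CD11c), the chain of complement receptor 4, was at 544, 572 and 592 CPM in wild type and 537, 514 and 486 in the knockout, and at 503, 482 and 446 in wild type and 398, 387 and 393 in the knockout with IFN-γ. The genotypes did not overlap here either, and ITGAX was lower in the knockout without IFN-γ (log2 fold change -0.15, adjusted p = 0.0036, SE 0.04) and with it (log2 fold change -0.28, adjusted p = 2.2e-06, SE 0.04). IFN-γ lowered it in both genotypes (-0.25 and -0.38).

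ITGAL (αL, CD11a), the chain of the ICAM receptor LFA-1, differed by genotype without IFN-γ. Its levels were 366, 364 and 368 CPM in wild type and 513, 494 and 486 in the knockout, and 617, 631 and 622 in wild type and 647, 634 and 644 in the knockout with IFN-γ. IFN-γ raised it by 0.77 on the log2 scale in wild type and by 0.37 in the knockout, and these responses differed (-0.40, SE 0.05, adjusted p = 2.3e-07). The genotype difference was 0.44 without IFN-γ (adjusted p = 2.1e-12) and 0.04 with it (SE 0.03, adjusted p = 0.34). The rise in the knockout lost its call under library totals alone (0.07, adjusted p = 0.065). ITGAL, ITGAM and ITGAX are all on chromosome 16, where ITGAM and ITGAX are neighbours and ITGAL lies apart from them.

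**Figure D4:**
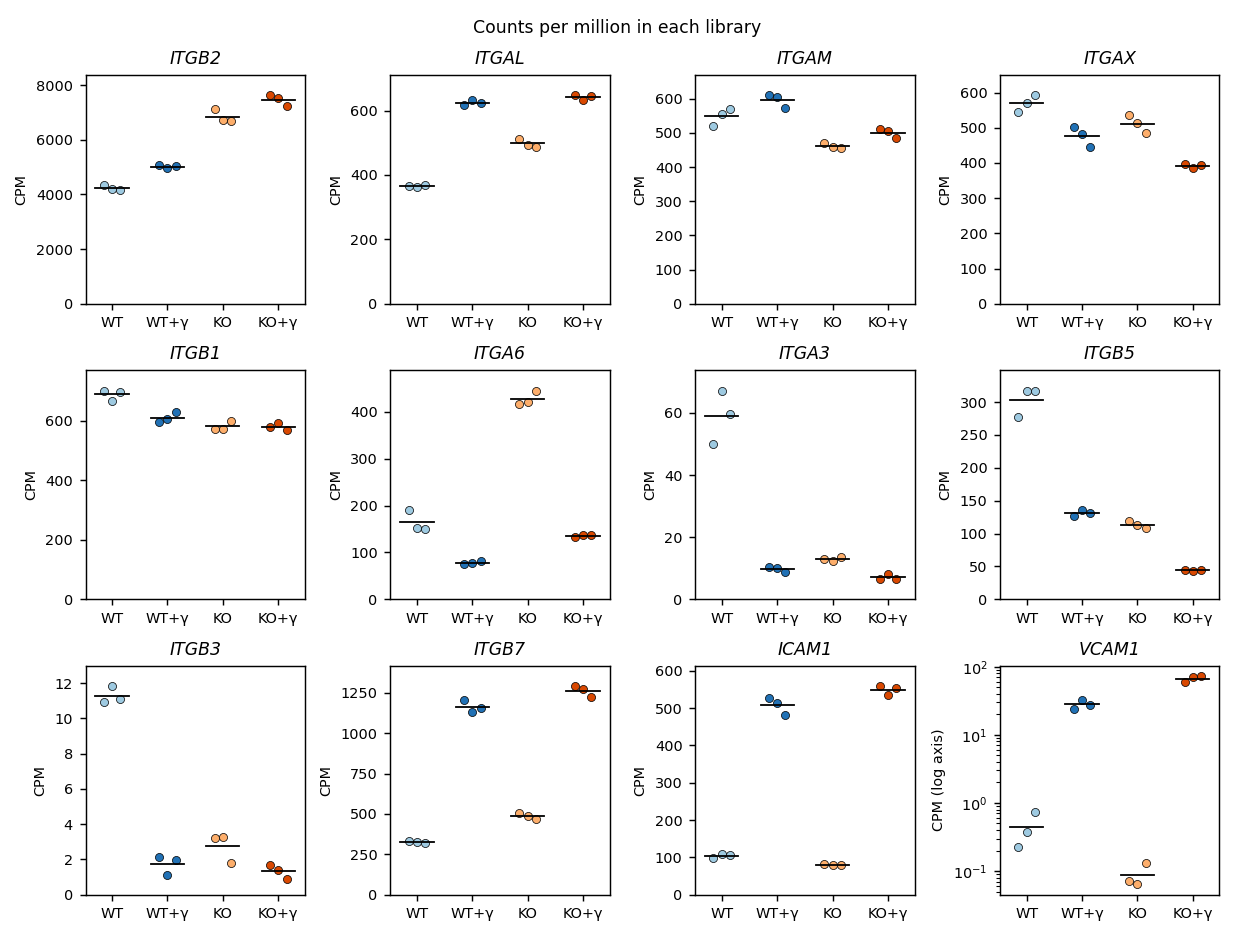
Each panel gives the CPM of 1 gene (y axis, from 0; a log axis for VCAM1) in each library of the 4 groups: wild type (WT), wild type with IFN-γ (WT+γ), knockout (KO) and knockout with IFN-γ (KO+γ). Points are libraries and lines are means of 3. ITGB2 stands higher in both knockout groups, ITGB5 falls with each of genotype and IFN-γ, and VCAM1 is near 0 until IFN-γ is given.

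Among the alpha partners of the β1 chain, ITGA6 and ITGA9 were higher in the knockout in both treatments and ITGA3 was lower. ITGB1 itself was at 701, 668 and 698 CPM in wild type and 573, 574 and 598 in the knockout, and at 596, 605 and 631 in wild type and 579, 592 and 571 in the knockout with IFN-γ. It was lower in the knockout without IFN-γ (log2 fold change -0.24, adjusted p = 9.5e-07, SE 0.04), while with IFN-γ the difference was -0.07 (SE 0.04, adjusted p = 0.097). ITGA6, the laminin-binding α6 chain, was higher in the knockout. Its CPM values were 190.0, 151 and 150.2 in wild type and 417, 422 and 445 in the knockout, and 74.3, 76.3 and 80.9 in wild type and 133, 137 and 137 in the knockout with IFN-γ. The groups did not overlap, with a 2.61-fold difference without IFN-γ (log2 fold change 1.39, adjusted p = 3.4e-19, SE 0.06) and a 1.76-fold difference with it (log2 fold change 0.81, adjusted p = 9.2e-13, SE 0.06). IFN-γ lowered ITGA6 in both genotypes, by 1.08 in wild type and 1.66 in the knockout on the log2 scale.

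ITGA9, whose α9 chain binds tenascin and osteopontin, was also higher in the knockout but scarcer. It was at 17.95, 15.4 and 16.2 CPM in wild type and 42.4, 43.3 and 46.0 in the knockout, and at 15.9, 14.1 and 16.4 in wild type and 33.4, 36.5 and 32.9 in the knockout with IFN-γ. The differences were 2.66-fold (log2 fold change 1.41, adjusted p = 1.2e-16, SE 0.07) and 2.22-fold (log2 fold change 1.15, adjusted p = 7.8e-14, SE 0.08). ITGA3, a laminin-binding α3 chain, was lower in the knockout, mostly without IFN-γ. Its values were 50.00, 67.1 and 59.8 CPM in wild type and 13.1, 12.4 and 13.6 in the knockout, and 10.5, 10.2 and 8.69 in wild type and 6.40, 8.23 and 6.58 in the knockout with IFN-γ, so wild type without IFN-γ stood apart from the other 3 groups. The genotype difference was -2.18 without IFN-γ (SE 0.09, adjusted p = 8.3e-19) and -0.47 with it (SE 0.12, adjusted p = 0.0015), and the IFN-γ responses differed by 1.71 (adjusted p = 6.1e-10).

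ITGA4, the α4 chain that binds VCAM1 and fibronectin, rose with IFN-γ in both genotypes. It was at 168, 154 and 162 CPM in wild type and 161, 178 and 169.8 in the knockout, and at 324, 338 and 349 in wild type and 363, 377 and 367 in the knockout with IFN-γ. The rise was 2.09-fold in wild type (log2 fold change 1.06, adjusted p = 3.4e-20, SE 0.04) and 2.17-fold in the knockout (log2 fold change 1.12, adjusted p = 6.2e-21, SE 0.04), and the responses were not found to differ (0.05, SE 0.06, adjusted p = 0.63). Its higher level in the knockout with IFN-γ (0.13, adjusted p = 0.012) lost its call without IFN-γ-treated wild-type replicate 1 (adjusted p = 0.083). ITGA5, the fibronectin receptor chain α5, averaged 345 ± 20.1 CPM (SD, n = 3) in wild type and 253 ± 5.14 in the knockout, a log2 fold change of -0.45 (adjusted p = 2.8e-10). With IFN-γ it averaged 224 ± 11.1 and 223 ± 6.04.

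The genotype calls of ITGA7 and ITGA10 rested on single libraries. ITGA7 averaged 22.9 ± 0.392 to 26.1 ± 1.03 CPM over the groups, and its higher level in the knockout with IFN-γ (0.19, adjusted p = 0.043) was lost without knockout replicate 1 or any 1 of the 3 wild-type libraries given IFN-γ (adjusted p 0.06 to 0.14). ITGA10, a collagen-binding chain, stayed at or under 1.61 CPM in every library. Its lower level in the knockout without IFN-γ (-0.76, adjusted p = 0.043) was lost without any 1 of 7 of the 12 libraries (adjusted p 0.05 to 0.21). ITGA1, another collagen-binding chain, had 8 counts in the 3 wild-type libraries, 2 in the knockout, and 38 and 48 with IFN-γ. Its CPM with IFN-γ was 0.481, 0.380 and 0.695 in wild type and 0.648, 0.570 and 0.688 in the knockout, above 0, 0.123 and 0.134 and 0, 0 and 0.0645 without. The ratio with IFN-γ to without was 4.76 in wild type (95% exact counting interval 2.19 to 11.8) and 23.4 in the knockout (6.12 to 198), and the fitted responses were not found to differ (adjusted p = 0.28). These intervals cover counting error only, and since mates were counted separately they are too narrow.

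Among the partners of αV, ITGB5 was lower in the knockout in both treatments and ITGB3 without IFN-γ, while ITGAV itself was not lower. ITGAV averaged 147 ± 4.33 CPM (SD, n = 3) in wild type and 142 ± 6.59 in the knockout (-0.05, SE 0.05, adjusted p = 0.43). With IFN-γ it averaged 115 ± 8.06 and 141 ± 2.74 and was higher in the knockout (0.30, adjusted p = 5.3e-06). ITGB5, which forms the vitronectin receptor αVβ5, was at 278, 316 and 317 CPM in wild type and 119, 113 and 108 in the knockout, and at 127, 136 and 130.5 in wild type and 44.7, 42.8 and 45.1 in the knockout with IFN-γ. The 4 groups did not overlap. The knockout was lower by 1.42 on the log2 scale without IFN-γ, to 37.3% of wild type (SE 0.05, adjusted p = 4.4e-21). With IFN-γ the log2 fold change was -1.57 (SE 0.05, adjusted p = 5.7e-21), which is 33.7% of wild type. IFN-γ lowered ITGB5 in both genotypes (-1.21 in wild type and -1.36 in the knockout), and the responses were not found to differ (-0.15, SE 0.07, adjusted p = 0.2).

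ITGB3, the β3 chain known from platelets and osteoclasts, was at 10.9, 11.8 and 11.1 CPM in wild type and 3.20, 3.28 and 1.81 in the knockout, and at 2.12, 1.14 and 1.96 in wild type and 1.66, 1.38 and 0.918 in the knockout with IFN-γ. Wild type without IFN-γ was again above the other groups. The genotype difference was -2.03 without IFN-γ (SE 0.18, adjusted p = 4.2e-11) and -0.39 with it (SE 0.26, adjusted p = 0.23), where the groups overlapped. IFN-γ lowered it by 2.70 in wild type and by 1.07 in the knockout, and these responses differed by 1.64 (adjusted p = 3.9e-04). ITGB3 shares 51.6% of its exon bases with 1 other gene on the same strand, which had 0 counts. ITGA2B, its partner on platelets, ranged from 0.162 to 1.14 CPM over the 12 libraries and was not called in any comparison. ITGB8, which activates latent TGF-β with αV, had 46 counts in the 3 wild-type libraries and 16 in the knockout, and 26 and 6 with IFN-γ. In CPM these were 0.457, 0.555 and 0.537 and 0.216, 0.0638 and 0.258 without IFN-γ. With it they were 0.240, 0.304 and 0.521 in wild type and 0.0811, 0.163 and 0 in the knockout. The knockout was lower in both treatments (-1.52, adjusted p = 0.026; -2.08, adjusted p = 0.021), and each call was lost when 1 of 3 libraries was left out (knockout replicate 2 or wild-type replicate 2 or 3 without IFN-γ, adjusted p 0.066 to 0.15; knockout replicate 1 or 3 or wild-type replicate 3 with it, 0.054 to 0.11).

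ITGB7, the β7 chain that pairs with α4 for gut homing and with αE for binding E-cadherin, rose steeply with IFN-γ. It was at 334, 324 and 322 CPM in wild type and 505, 488 and 469 in the knockout. With IFN-γ it was at 1205, 1131 and 1157 in wild type and 1289, 1273 and 1223 in the knockout. The rise was 3.57-fold in wild type (log2 fold change 1.83, adjusted p = 1.9e-28, SE 0.04) and 2.59-fold in the knockout (log2 fold change 1.37, adjusted p = 3.3e-25, SE 0.04), a difference between the responses of -0.46 (SE 0.05, adjusted p = 4.8e-08). The knockout was higher without IFN-γ by 0.58 (SE 0.04, adjusted p = 1.9e-14). With it the difference of 0.12 (adjusted p = 0.0092) lost its call without knockout replicate 1 (adjusted p = 0.056) or wild-type replicate 2 (0.062). ITGB7 shares 42.1% of its exon bases with ZNF740 on the opposite strand, which had 30194 counts over the 12 libraries.

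ITGAE, the αE chain (CD103), went down where ITGB7 went up. The shift of this pair was the same way in both genotypes. ITGAE averaged 22.7 ± 0.582 CPM (SD, n = 3) in wild type and 36.7 ± 2.43 in the knockout, and 17.8 ± 0.539 and 21.8 ± 1.82 with IFN-γ. The fall with IFN-γ was -0.35 in wild type (adjusted p = 2.7e-04) and -0.75 in the knockout (adjusted p = 1.1e-10). ITGB4, the β4 chain of hemidesmosomes and a partner of α6, averaged between 2.41 ± 0.280 and 4.37 ± 0.357 CPM, fell with IFN-γ in both genotypes (-0.56 and -0.60) and was not called by genotype.

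Setting the chains side by side in TPM gives the balance of RNA among them and within each pair. Among the 7 beta chains, ITGB2 held 68.9% ± 0.555 of the summed TPM in wild type (SD, n = 3) and 77.6% ± 0.290 in the knockout, and 57.5% ± 0.279 and 66.0% ± 0.0866 with IFN-γ. ITGB7 held 13.3% ± 0.0404 and 13.8% ± 0.212 without IFN-γ and 33.3% ± 0.570 and 27.9% ± 0.0425 with it. ITGB1 held 12.2% ± 0.299 in wild type without IFN-γ and 5.59% ± 0.113 in the knockout with it. The order of ITGB1 and ITGB7 in wild type rests on the length used: on the deposited exon length ITGB1 held 13.3% and ITGB7 8.46%. ITGB5 went from 4.98% ± 0.451 in wild type to 0.394% ± 0.0179 in the knockout with IFN-γ. Among the 15 alpha chains, ITGAM (26.4% ± 0.699), ITGAX (21.9% ± 0.522) and ITGAL (17.05% ± 0.307) led in wild type, followed by ITGA5 (12.5% ± 0.544). ITGA6 held 7.24% ± 1.14 of the alpha TPM in wild type and 17.4% ± 0.759 in the knockout, close to ITGAX there (18.2% ± 0.723).

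Ratios of alpha to beta RNA were compared by genotype. Of 20 pairs, 17 had enough counts for a ratio in every library, and the exact two-sided permutation test over libraries can give no p below 0.1 with 3 against 3, so after adjustment over the 17 pairs no ratio could pass 0.05. The genotypes did not overlap in 16 of the 17 pairs without IFN-γ and in 11 with it, and the pairs share chains, chiefly ITGB1 and ITGB2. For the CPM of single genes, 56.1% of all genes tested did not overlap without IFN-γ and 54.3% with it, and no such share was computed for ratios. With IFN-γ the exact p was 0.1 for those 11 (adjusted p = 0.155), and without it for those 16 (adjusted p = 0.106). ITGB2 stood above its alpha chains by more in the knockout. There were 6.76 ± 0.480 ITGB2 transcripts per ITGAM transcript in wild type (SD, n = 3) and 12.9 ± 0.225 in the knockout, and 7.35 ± 0.270 and 13.0 ± 0.0531 with IFN-γ. For ITGAX they were 8.12 ± 0.555 and 14.6 ± 0.379, and 11.5 ± 0.703 and 20.7 ± 0.564 with IFN-γ. For ITGAL they were 10.4 ± 0.277 and 12.4 ± 0.119, and 7.26 ± 0.171 and 10.5 ± 0.306 with IFN-γ. No library of one genotype overlapped the other in any of these 3 pairs, in either treatment.

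Of the αV pairs, ITGAV:ITGB5 changed from fewer alpha than beta transcripts in wild type to more in the knockout with IFN-γ. The ratio was 0.391 ± 0.0387 in wild type (SD, n = 3) and 1.01 ± 0.0965 in the knockout, and 0.708 ± 0.0520 and 2.58 ± 0.0941 with IFN-γ. ITGAV exceeded ITGB3 in every group, with a ratio of 3.46 ± 0.241 in wild type and 14.8 ± 5.87 in the knockout. Chains of 2 laminin receptors, α6β1 and α3β1, had opposite genotype differences. For ITGA6:ITGB1 the ratio was 0.229 ± 0.0285 in wild type and 0.710 ± 0.00804 in the knockout, and 0.122 ± 0.00166 and 0.225 ± 0.00568 with IFN-γ. ITGA3:ITGB1 was at 0.0523 ± 0.00886 in wild type, 0.0136 ± 0.000447 in the knockout, and 0.00979 ± 0.00124 and 0.00741 ± 0.000926 with IFN-γ. The α4 chain has β1 and β7 as partners. ITGA4 met ITGB1 at 0.177 ± 0.00391 to 1 in wild type and 0.417 ± 0.00560 with IFN-γ, while against ITGB7 it went from 0.162 ± 0.00512 to 0.0952 ± 0.00592. For αEβ7 there were 34.2 ± 0.814 ITGB7 transcripts per ITGAE transcript in wild type and 155 ± 7.01 with IFN-γ, and 31.5 ± 2.26 and 138 ± 8.44 in the knockout. Levels of ratios with ITGB3 or ITGB7 rest on the length too: on the deposited length, in wild type, ITGAV:ITGB3 was 6.98, ITGA4:ITGB7 was 0.280, and there were 21.4 ITGB7 transcripts per ITGAE transcript. Fold differences of a ratio between groups are the same on either length.

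**Figure D5:**
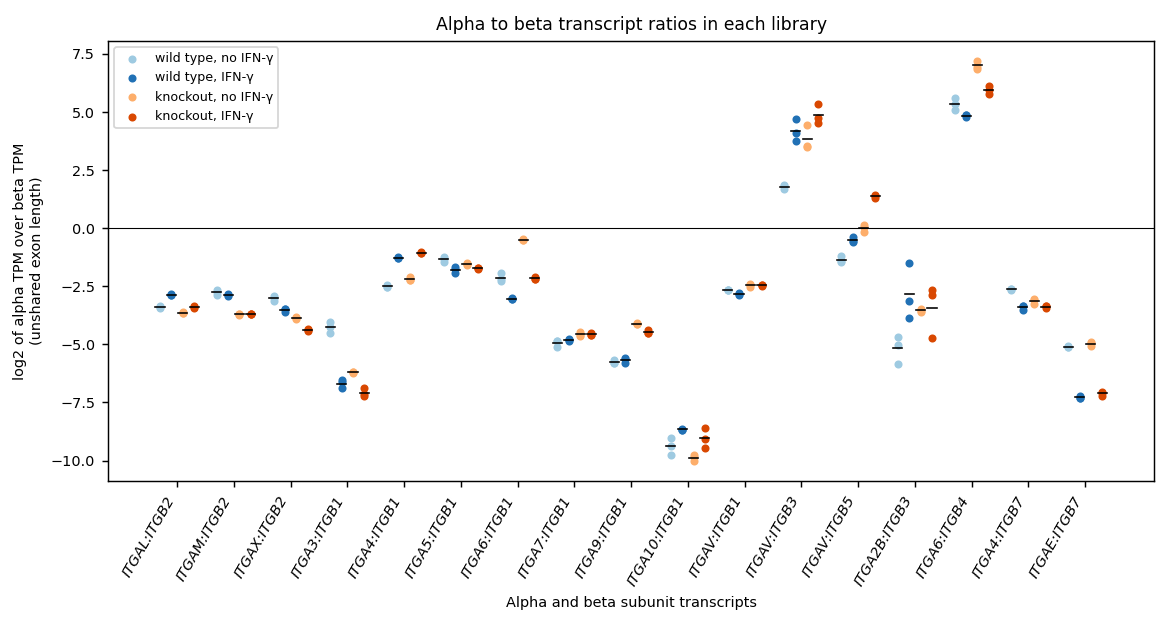
Points give the log2 ratio of alpha to beta TPM, on unshared exon length, (y axis) in each of the 12 libraries for 17 alpha and beta pairs (x axis), coloured by group, with the mean of 3 as a line. A point above 0 has more alpha than beta RNA. The 3 pairs with ITGB2 lie lower in the knockout, ITGA6:ITGB1 and ITGA9:ITGB1 higher, and ITGAV:ITGB5 crosses 0.

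ICAM1, the ligand of αLβ2 and αMβ2 (chr19:10270835-10286615, plus strand), and VCAM1, the ligand of α4β1 (chr1:100719742-100739045, plus strand), both rose more with IFN-γ in the knockout than in wild type. ICAM1 was at 97.2, 109.7 and 107 CPM in wild type and 82.5, 79.7 and 78.6 in the knockout. With IFN-γ it was at 526, 513 and 483 in wild type and 558, 536 and 554 in the knockout, so every treated library stood far above every untreated one. The rise was 4.85-fold in wild type (log2 fold change 2.28, adjusted p = 6.3e-29, SE 0.05) and 6.85-fold in the knockout (log2 fold change 2.78, adjusted p = 4.2e-31, SE 0.05), and the responses differed by 0.50 (SE 0.06, adjusted p = 3.5e-07). The knockout was lower without IFN-γ (log2 fold change -0.38, adjusted p = 2.1e-08, SE 0.05). With IFN-γ the difference was 0.12 (SE 0.04, adjusted p = 0.024), a call lost without knockout replicate 1 (adjusted p = 0.088), knockout replicate 3 (0.066) or wild-type replicate 3 (0.16). ICAM1 shares 23.6% of its exon bases with antisense genes, chiefly ICAM4-AS1, which had 47 counts in all.

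VCAM1 was at 0.229, 0.370 and 0.738 CPM in wild type and 0.0720, 0.0638 and 0.129 in the knockout, 40 and 8 counts over 3 libraries. With IFN-γ it was at 24.2, 32.4 and 27.8 in wild type and 58.7, 69.6 and 73.1 in the knockout, the lowest knockout library above the highest of wild type. The knockout was lower without IFN-γ (log2 fold change -2.29, adjusted p = 0.0014, SE 0.58) and 2.38-fold higher with it (log2 fold change 1.25, adjusted p = 8.5e-13, SE 0.09). The fitted rise was 61.7-fold in wild type (log2 fold change 5.95, adjusted p = 9.5e-24, SE 0.18). For the knockout the ratio of counts with IFN-γ to without, corrected for unscaled library totals, was 617 (95% exact counting interval 313 to 1429). The fitted rise in wild type used scaled libraries, so these values are not on the same scale. The interval covers counting error only, and since mates were counted separately it is too narrow. The responses differed (3.54, SE 0.57, adjusted p = 2.4e-05), a value that rests on the 8 counts of the untreated knockout.

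ICAM2 and ICAM3 are further ligands of αLβ2. Per unshared exon length ICAM3 was at 110.5 ± 8.33 TPM in wild type and 140.0 ± 10.7 in the knockout (SD, n = 3), beside 164 ± 10.7 and 124 ± 2.23 for ICAM1, while ICAM2 was at 6.09 ± 0.307 and 5.64 ± 1.73. How near ICAM3 stood to ICAM1 rests on the length used. On the deposited length ICAM3 was at 31.8 TPM in wild type and 40.3 in the knockout, and ICAM1 at 125 and 94.4. ICAM2 averaged 3.27 ± 0.157 CPM (SD, n = 3) in wild type and 5.13 ± 0.702 in the knockout with IFN-γ. It rose with IFN-γ by 0.74 in the knockout (adjusted p = 7.2e-04) and by 0.55 in wild type (adjusted p = 0.011), the latter lost without treated wild-type replicate 3 (adjusted p = 0.052). ICAM3 averaged 21.2 ± 1.51 CPM in wild type and 27.3 ± 1.87 in the knockout, higher by 0.36 (adjusted p = 0.0019), and fell with IFN-γ in the knockout (-0.63, adjusted p = 1.6e-06). Its fall in wild type (-0.23, adjusted p = 0.047) was lost in 8 of the 12 fits that left out 1 library (adjusted p 0.051 to 0.24), and ranged from -0.36 without treated wild-type replicate 1 to -0.15 without replicate 3. With 71.2% of its exon bases shared, ICAM3 was counted on the remainder.

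F11R (junctional adhesion molecule A, a ligand of αLβ2) was higher in the knockout, and more so with IFN-γ. It was at 123, 115 and 117 CPM in wild type and 184, 177 and 185 in the knockout, and at 77.9, 73.5 and 80.7 in wild type and 175, 180.0 and 177 in the knockout with IFN-γ. The difference was 1.54-fold without IFN-γ (log2 fold change 0.62, adjusted p = 1.6e-13, SE 0.04) and 2.29-fold with it (log2 fold change 1.20, adjusted p = 5.2e-20, SE 0.05). In wild type F11R fell with IFN-γ (-0.61, adjusted p = 2.2e-13), while in the knockout the change was -0.04 (SE 0.04, adjusted p = 0.44). These responses differed by 0.58 (SE 0.06, adjusted p = 2.7e-08). PECAM1 (CD31), which acts between leukocytes and endothelium in transmigration, was at 612, 564 and 558 CPM in wild type and 828, 811 and 825 in the knockout, and at 328, 324 and 336 in wild type and 352, 366 and 369 in the knockout with IFN-γ. IFN-γ lowered it in wild type (log2 fold change -0.81, adjusted p = 1.6e-18, SE 0.04) and in the knockout (log2 fold change -1.18, adjusted p = 4.7e-23, SE 0.04). The knockout was higher by 0.51 without IFN-γ (adjusted p = 5.8e-13) and by 0.14 with it (adjusted p = 0.0032). The latter call was lost under library totals alone (0.06, adjusted p = 0.21).

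SELPLG (PSGL-1), the main selectin ligand of leukocytes, was higher in the knockout in both treatments. It averaged 42.4 ± 0.735 CPM (SD, n = 3) in wild type and 62.3 ± 3.13 in the knockout, and 56.2 ± 1.61 and 97.0 ± 2.47 with IFN-γ. The log2 fold changes were 0.55 (SE 0.05, adjusted p = 1.2e-10) and 0.79 (SE 0.05, adjusted p = 2.5e-14). CD47, the ligand of SIRPA that restrains phagocytosis, rose with IFN-γ and was slightly lower in the knockout. Its values were 101, 93.0 and 99.9 CPM in wild type and 78.2, 83.7 and 86.7 in the knockout, and 202, 218 and 227 in wild type and 189, 194 and 189.6 in the knockout with IFN-γ. The rise was 2.20-fold in wild type (log2 fold change 1.14, adjusted p = 9.6e-20, SE 0.05) and 2.30-fold in the knockout (log2 fold change 1.20, adjusted p = 2.2e-20, SE 0.05). By genotype CD47 differed by -0.24 without IFN-γ (adjusted p = 1.3e-04) and -0.18 with it (adjusted p = 0.0023). SIRPA averaged 782 ± 33.4 CPM in wild type and 708 ± 8.48 in the knockout, lower by 0.14 (adjusted p = 0.001), and with IFN-γ the difference was -0.08 (adjusted p = 0.068).

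None of the adapters of the set (TLN1, FERMT3, VCL and ILK) differed by genotype by 1 or more on the log2 scale. VCL (vinculin) was at 204, 200.2 and 199 CPM in wild type and 193, 192 and 191 in the knockout, and at 153, 160.3 and 158 in wild type and 210.4, 212 and 214 in the knockout with IFN-γ. Wild type with IFN-γ was below the other groups: VCL fell there (-0.35, SE 0.04, adjusted p = 1.9e-09), the knockout was higher with IFN-γ (log2 fold change 0.43, adjusted p = 5.3e-11, SE 0.04), and the responses differed by 0.50 (adjusted p = 2.9e-08). FERMT3 (kindlin-3) was higher in the knockout with IFN-γ (0.22, adjusted p = 1.8e-04; 421 ± 10.8 against 363 ± 18.9 CPM), and its fall with IFN-γ in the knockout (-0.10, adjusted p = 0.046) was lost without any 1 of 6 libraries (adjusted p 0.056 to 0.23). TLN1 (talin-1) averaged 1416 ± 54.2 CPM in wild type and 1604 ± 41.5 in the knockout, higher by 0.18 (adjusted p = 4.4e-05), and with IFN-γ 1731 ± 40.9 and 1719.9 ± 23.3. ILK (integrin-linked kinase, 78.5% of its exon bases shared) had 57 to 90 counts per group, and its genotype differences of 0.01 (SE 0.39) and 0.30 (SE 0.35) were not called. Its rise with IFN-γ in the knockout (0.88, adjusted p = 0.036) was lost without knockout replicate 3, or without treated knockout replicate 2 or 3 (adjusted p 0.065 to 0.2).

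For 17 of the 34 genes the response to IFN-γ differed between genotypes, where 15.5% of all genes tested did (7.61% higher and 7.86% lower in the knockout). In 11 of the 17 the signed log2 response was higher in the knockout and in 6 lower. A higher value can be a smaller fall, as for ITGA3 and ITGB3. A lower value can be a larger fall, as for ITGA6, ITGAE and PECAM1. For VCAM1, ITGA3 and ITGB3 the difference was 1 or more on the log2 scale, as in 2.68% of all genes tested. With library totals alone the counts were 9 and 10. The genotype difference was smaller in size with IFN-γ in 12 of the 17 (ICAM1, ITGA3, ITGA5, ITGA6, ITGAE, ITGAL, ITGB1, ITGB3, ITGB7, PECAM1, TLN1 and VCAM1), and larger in F11R, FERMT3, ITGAV, SELPLG and VCL. Of those 12, ICAM1 and VCAM1 were called lower in the knockout without IFN-γ and higher with it. Among all 2647 genes called in this test the genotype difference was smaller in size for 52.5%. Some of the 17 calls rested on single libraries. ITGB1 (0.17, adjusted p = 0.019) was lost without knockout replicate 1 or 2, wild-type replicate 3 or treated wild-type replicate 1 (0.054 to 0.062). SELPLG (0.23, adjusted p = 0.024) was lost without any 1 of 5 libraries (0.057 to 0.08), and TLN1 (-0.19, adjusted p = 0.0054) without treated knockout replicate 2 (0.074). ICAM3 (-0.39, adjusted p = 0.054) and ITGB2 (-0.12, adjusted p = 0.055) missed the threshold and passed it in other settings.

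Genes that act around these receptors were followed in 5 further lists. Of 43 genes of integrin activation and focal adhesion, all tested, 11 were higher and 23 lower in the knockout with IFN-γ (all genes tested: 22.9% higher, 24.3% lower), and 8 higher and 26 lower without (25.4% and 24.8%), with medians of -0.21 and -0.20, against -0.01 and 0.01 over all genes. FERMT2 (kindlin-2) was lower by a log2 fold change of -1.51 (SE 0.09, adjusted p = 1.4e-15) with IFN-γ and -3.00 (SE 0.10, adjusted p = 3.9e-22) without. PARVA (parvin-α, a partner of ILK) was at -1.35 (SE 0.09, adjusted p = 1.4e-13) with IFN-γ and -1.66 (SE 0.10, adjusted p = 3.3e-15) without. PTK2 (focal adhesion kinase) was lower with IFN-γ, at -2.52 (SE 0.23, adjusted p = 8.5e-11), and FGR, a Src-family kinase, without it, at -1.91 (SE 0.06, adjusted p = 3.5e-22). With IFN-γ PTK2 averaged 5.34 CPM in wild type and 0.923 in the knockout. TNS1 (tensin-1) was higher with IFN-γ, at 0.90 (SE 0.05, adjusted p = 3.9e-15), as were PXN (paxillin) at 0.54 and BCAR1 at 0.63. Without IFN-γ BCAR1 (0.51), CORO1A (0.47) and RASSF5 (0.24), an activator of αLβ2, were higher.

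Of 16 selectins, selectin ligands and glycosyltransferases, 13 were tested, and 5 were higher and 6 lower in the knockout with IFN-γ (47.2% of all genes called) and 4 higher and 5 lower without (50.1%), with medians of -0.02 and -0.01, against -0.01 and 0.01 over all genes. SELE and SELP had 0 counts. GCNT1, a glycosyltransferase that branches the glycans selectins bind, was higher in the knockout, at 0.53 (SE 0.07, adjusted p = 4.3e-08) with IFN-γ and 1.25 (SE 0.08, adjusted p = 6.3e-15) without. GLG1 (0.34 and 0.37) and the sulfotransferase TPST1 (0.29 and 0.51) were also higher in both treatments. The sialyltransferases ST3GAL6 (-1.01 and -0.77) and ST3GAL3 (-0.72 and -0.31) were lower in both. TPST2 was lower with IFN-γ (-0.43), and CD44 without it (-0.35).

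Of 29 other adhesion and transmigration molecules, 23 were tested, and 4 were higher and 8 lower in the knockout with IFN-γ (47.2% of all genes called) and 5 higher and 9 lower without (50.1%), with medians of -0.16 and -0.22, against -0.01 and 0.01 over all genes. L1CAM was lower at -1.62 (SE 0.18, adjusted p = 3.0e-09) with IFN-γ and -3.02 (SE 0.17, adjusted p = 1.3e-15) without. Its means without IFN-γ were 9.18 CPM in wild type and 1.14 in the knockout. The tetraspanin CD9, a partner of β1 integrins, was at -0.82 and -0.99, and CD226 at -1.91 with IFN-γ. CD99L2 was higher in both (0.28 and 0.75), CD99 (0.39) and NECTIN2 (0.47) with IFN-γ, and ESAM (0.72) and SIRPB2 (0.34) without. SIRPB1 was lower without IFN-γ (-0.65).

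Of 23 extracellular integrin ligands, 18 were tested, and 7 were higher and 8 lower in the knockout with IFN-γ (47.2% of all genes called) and 7 higher and 6 lower without (50.1%), with medians of 0.04 and 0.12, against -0.01 and 0.01 over all genes. C3, whose fragment iC3b is bound by αMβ2 and αXβ2, was higher at 1.23 (SE 0.04, adjusted p = 4.5e-21) with IFN-γ and 1.22 (SE 0.04, adjusted p = 4.1e-21) without. COL1A1 was higher in both (1.13 and 0.59), THBS1 without IFN-γ (2.22) and MFGE8, a bridge from αV integrins to dying cells, with it (0.42). THBS1 was scarce, at means of 1.22 CPM in wild type and 5.59 in the knockout without IFN-γ. The basement membrane genes COL4A1 (-2.54) and COL4A2 (-2.87) and VWF (-1.64) were lower without IFN-γ. Mean CPM there was 8.65 in wild type and 1.49 in the knockout for COL4A1, and 7.69 and 1.07 for COL4A2. VWF was also called lower with IFN-γ, at means of 2.30 CPM in wild type and 1.13 in the knockout. NID1 (-0.83), LAMA5 (-0.67) and TGFB1 (-0.24) were lower with IFN-γ. Of the 4 integrin subunits outside the set, ITGAD and ITGA11 were tested and neither was called by genotype.

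Some of these genes lie among neighbours that differed by genotype too. The 20 tested genes nearest to ITGB2 on chromosome 21, 10 on each side (44414588 to 45291738), had a median log2 fold change of 0.72 with IFN-γ and 0.64 without, with 13 and 12 of them higher and 0 lower. The difference of ITGB2 itself, 0.57 and 0.69, was of the same size as that median. The neighbours of F11R on chromosome 1 had medians of 0.38 and 0.31, beside 1.20 and 0.62 for the gene. Around ITGAE on chromosome 17 (-0.46 and -0.33) and ITGA6 on chromosome 2 (-0.29 and -0.19) the neighbours were lower while the gene was higher. Around ITGAL the medians were 0.17 and 0.31, beside 0.04 and 0.44 for the gene, and around CD47 -0.22 and -0.17, beside -0.18 and -0.24. Around ITGAM the medians were 0.14 and 0.34, beside -0.25 and -0.25 for the gene. Around ITGB5 they were -0.13 and -0.12, beside -1.57 and -1.42. Of the 34 genes, 16 had the sign of their neighbours' median with IFN-γ, 15 without and 10 in both. The genes named here were chosen after their values were seen. The number of gene copies was not measured, and its part in these differences was not tested.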

How the data were processed

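Stranded mRNA libraries, 12 in all, were sequenced (labels' protocols). A single table of reads counted per gene on hg38 was deposited, which the authors made with featureCounts 2.0.3 over exons, with paired reads, primary alignments only and chimeric pairs left out, per the file headers. The same header shows no strand or overlap option, and mates counted separately. Between 70.4% and 73.3% of the counts from 1 to 19 were even. Other tools named per the submitters' processing notes were STAR 2.7.10b and BWA (aligners), fastp 0.23.2, MultiQC 1.13, FastQC and Picard 2.27.5. Which aligner gave the counted reads, and the annotation release, is not given in the sources used here.

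Symbols were found for 56948 of the 58051 gene identifiers. CPM (on TMM-scaled library sizes), TPM and log2 fold changes were computed here. TPM used the deposited exon lengths, and levels of these 36 genes were then rescaled to the exon bases that no other gene of the table covers, by the exon coordinates the deposited table gives, a choice made after seeing the data. Genes were filtered with filterByExpr, scaled by TMM and tested with edgeR 4.0.16 (quasi-likelihood, two-sided) in 1 fit of 12 libraries with a term for group and no other, with Benjamini-Hochberg adjustment over 17119 genes. A standard error is the size of the log2 fold change divided by the square root of the F statistic. A floor of 3 counts was 0.102 to 0.127 CPM of the unscaled library totals, and intervals cover counting error only. The code was tested on simulated data. Alternatives were limma 3.58.1 (voom), DESeq2 1.42.0, other scalings and filters, the compared libraries alone, the replicate number as a block, and leaving out each library.

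Values in every library were given for genes called with an absolute log2 fold change of 1 or more in a genotype comparison or an IFN-γ response, or 0.5 or more in the difference of responses, and for ITGB1, ITGB2, ITGAM, ITGAL, ITGAX and ICAM1. From each further list up to 3 genes per direction and genotype comparison were named: called, at least 5 CPM in the higher group, no overlap, largest change first. A gene named for 1 treatment alone may thus also have been called in the other. Genes and lists were chosen with earlier results of these data known.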

Additional observations from a re-analysis of the deposited data

Results flagged for a closer look

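The response to IFN-γ differed between the knockout and wild type for 17 of the 34 genes, by edgeR's quasi-likelihood test of the difference itself (knockout response minus wild-type response, log2, 3 libraries a group). It was higher in the knockout for VCAM1 (3.54, adjusted p = 2.4e-05), ITGA3 (1.71, adjusted p = 6.1e-10), ITGB3 (1.64, adjusted p = 3.9e-04), F11R (0.58, adjusted p = 2.7e-08), ICAM1 (0.50, adjusted p = 3.5e-07), VCL (0.50, adjusted p = 2.9e-08), ITGA5 (0.44, adjusted p = 2.7e-06), ITGAV (0.34, adjusted p = 3.6e-04), FERMT3 (0.24, adjusted p = 0.0072), SELPLG (0.23, adjusted p = 0.024) and ITGB1 (0.17, adjusted p = 0.019). It was lower for ITGA6 (-0.57, adjusted p = 4.7e-06), ITGB7 (-0.46, adjusted p = 4.8e-08), ITGAE (-0.41, adjusted p = 0.007), ITGAL (-0.40, adjusted p = 2.3e-07), PECAM1 (-0.37, adjusted p = 4.8e-06) and TLN1 (-0.19, adjusted p = 0.0054). Higher and lower here refer to the signed response: ITGA3 and ITGB3, for instance, fell less in the knockout, and ITGA6, ITGAE and PECAM1 fell more. Over all genes tested, 15.5% were called.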

How the results depend on the processing

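Most results kept their direction and their side of the threshold, and scaling was the choice that moved most. With library totals alone the count of these genes higher with IFN-γ was 8 in wild type and 8 in the knockout. That of genes lower with IFN-γ than without it in the knockout was 21, and 10 had a lower response in the knockout. Under a filter of at least 5 CPM in 3 libraries, which keeps fewer genes, 10 rose with IFN-γ in the knockout. Under library totals the IFN-γ responses of ITGAM (-0.129), ITGB2 (-0.00577) and SIRPA (-0.0473) in wild type, and of ITGA7 (-0.296), ITGAM (-0.182), ITGB2 (-0.174), SIRPA (-0.0284), TLN1 (-0.197) and VCL (-0.153) in the knockout, changed sign, and under upper-quartile scaling those of ITGAM (-0.00269) and TLN1 (-0.0177) in the knockout; the cause was not tested. Of all calls, 48.6% were higher in the knockout with IFN-γ (35.6% under library totals), 50.7% were rises with IFN-γ in wild type (25.1%; 37.5% under upper quartile), 47.9% in the knockout (23.4%; 36.4%) and 49.2% in the difference of responses (35.0%). Leaving out 1 library at a time changed the sign of 6 log2 alpha to beta ratio differences. With IFN-γ against without in the knockout they ranged from -0.274 to 0.773 for ITGA2B:ITGB3, -0.0372 to 0.0578 for ITGA7:ITGB1, -0.0226 to 0.000587 for ITGAM:ITGB2 and -0.0271 to 0.0242 for ITGAV:ITGB1, and by genotype with IFN-γ from -1.13 to 0.0689 for ITGA2B:ITGB3 and -0.0383 to 0.0435 for ITGA4:ITGB7. The replicate numbers did not pair the libraries: of 18 same-numbered pairs across groups 2 had a correlation over 0.1 (-0.149 to 0.252), and 4 of 12 libraries correlated best with their own number. With the replicate number as a block, the knockout calls were 14 higher and 6 lower with IFN-γ and 11 and 13 without, 13 rose and 15 fell with IFN-γ in wild type, 16 and 12 in the knockout, and the responses differed for 11 and 8. The depth limits ITGA1, ITGA2, ITGA2B, ITGB8 and untreated VCAM1, with few counts a library.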
